A study of Homo sapiens with 12 samples.

Results

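FOXA1, FOXA2 and FOXA3 are the 3 genes of the FOXA family of forkhead transcription factors, out of 19974 protein-coding genes placed on chromosomes 1 to 22 and X. They were chosen by name, and were described by the histone-mark summits at their gene ends and within 50 and 100 kb of either end. A summit is the position at which a peak caller found the strongest signal of a peak. FOXA proteins are called pioneer factors because they can bind their site in closed chromatin, where they open it for other factors such as HNF4A and the C/EBP proteins. In the embryo they are needed for the liver to form from foregut endoderm, and in adult hepatocytes they bind enhancers of serum protein and metabolic genes. H3K27ac, acetylated lysine on histone H3, marks active promoters and enhancers, and H3K4me1, the singly methylated form of another lysine of this histone, marks enhancers whether active or poised.

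The series asked how choline supply alters chromatin and transcription in liver cancer cells. The 4 libraries used here are ChIP-seq of H3K27ac or H3K4me1 in Huh7, a human hepatocellular carcinoma line labelled wild type, kept for 48 h with 0 or 15 µM choline. All 4 groups shared a custom DMEM free of choline chloride in which B-27 stood in for serum. Each mark was profiled in 1 library per dose, from 1 cell line, so no replicate spread could be measured and every difference between doses is one between 2 libraries. The other 8 of the 12 samples, among them 3 RNA-seq samples and 4 inputs, were not analysed here, so nothing below measures FOXA RNA or protein.

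The lists of H3K27ac numbered 37946 summits without choline and 29305 with it, and those of H3K4me1 343156 and 349202. Read depth is unknown. Each summit carries the authors' score, a −log10 significance value, which is used below to place a summit within its own list and, once, as a minimum applied to both lists of a mark. Of 7 hepatocyte markers, 6 had an H3K27ac summit within 1 kb of a gene end at both doses. Of 4 blood, 3 fibroblast and stellate, 3 endothelial and 2 neuron markers, 2 had one at 0 µM (PECAM1 and SNAP25) and 2 at 15 µM (PECAM1 and CD3E). Of 4 lung and gut markers, VIL1 and CDX2 had one at both doses, and the lung markers SFTPC and NKX2-1 at neither. Over all protein-coding genes, 28.3% had such a summit at 0 µM, 16.2% at 15 µM and 13.5% at both. With so few markers, those of other cell types cannot be told from these shares.

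The sequences just before a transcript start are shown first, because a summit can be read against them. RefSeq (GRCh38.p14, the assembly family of the hg38 files) gave the 250 bases before the start of FOXA1 (chr14:37595250-37595499, minus strand), of FOXA3 (chr19:45864076-45864325, plus strand) and of LOC105372564 (chr20:22524191-22524440, minus strand), a long noncoding RNA gene near FOXA2 whose start had H3K27ac in both lists. Capitals mark each match, on either strand, to 4 short motifs that were chosen with the sequences in view. They are the forkhead core TGTTTNC, which reads GNAAACA on the other strand, the GC box GGGCGG, which reads there as CCGCCC, a KLF-type core GGGNGNGG, which reads there as CCNCNCCC, and the TATA box TATAAA, which reads there as TTTATA. GC box and KLF-type matches can overlap.
FOXA1: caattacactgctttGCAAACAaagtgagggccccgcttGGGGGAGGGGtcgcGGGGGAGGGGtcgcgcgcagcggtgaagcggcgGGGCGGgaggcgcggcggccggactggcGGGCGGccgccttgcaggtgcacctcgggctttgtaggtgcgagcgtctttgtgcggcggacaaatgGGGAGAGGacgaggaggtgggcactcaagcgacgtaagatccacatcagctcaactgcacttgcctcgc
FOXA3: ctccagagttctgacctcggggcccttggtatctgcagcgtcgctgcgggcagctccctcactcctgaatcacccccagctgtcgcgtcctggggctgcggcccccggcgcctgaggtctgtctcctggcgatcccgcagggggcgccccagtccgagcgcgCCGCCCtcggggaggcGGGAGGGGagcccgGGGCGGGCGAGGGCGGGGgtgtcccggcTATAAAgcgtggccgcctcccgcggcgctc
LOC105372564: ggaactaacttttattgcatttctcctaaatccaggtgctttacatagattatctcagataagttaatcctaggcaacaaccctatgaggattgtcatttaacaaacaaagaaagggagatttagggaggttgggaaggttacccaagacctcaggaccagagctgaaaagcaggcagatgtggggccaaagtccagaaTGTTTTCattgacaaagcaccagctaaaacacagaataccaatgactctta

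CpG, the dinucleotide that vertebrate DNA methylation targets, was found 26 times in the FOXA1 stretch and 28 times in that of FOXA3, against a median of 17 over 15813 promoters of protein-coding genes. At least as many were found in 25.6% and 20.6% of those promoters. The LOC105372564 stretch had 0. The forkhead core was found once at FOXA1, 235 to 229 bases before the start, and once at LOC105372564, 51 to 45 bases before it, and 12.5% of the 15813 promoters held it. FOXA3 had a TATA box 30 to 25 bases before its start, held by 9.25% of promoters. GC boxes were found 2 times at FOXA1 and 3 times at FOXA3, and KLF-type cores 5 times and 3 times. These are common letters, as 56.0% of promoters held a GC box and 64.4% a KLF-type core. A match describes the letters only and shows no binding.

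Each FOXA gene had a summit within 1 kb of at least 1 of its ends in each of the 4 lists. Over all protein-coding genes, the share with such a summit was 28.3% for H3K27ac at 0 µM, 16.2% at 15 µM, 51.6% for H3K4me1 at 0 µM and 52.9% at 15 µM. Genes with such a summit in all 4 lists made up 6.24%, in both H3K27ac lists 13.5% and in both H3K4me1 lists 36.6%. Either end counts, so the end called can differ between lists. At the lower-coordinate end alone, H3K27ac lay within 1 kb at 3 of 3 FOXA genes in both lists, against 15.3% of all genes at 0 µM and 8.68% at 15 µM, and H3K4me1 at 2 of 3 and 3 of 3, against 31.5% and 32.0%. No FOXA gene lost its H3K27ac end at 15 µM, meaning that no summit of that list lay within 2 kb of either end, and none gained one. The share lost was 43.9% of the 5648 genes with an end call at 0 µM, and the share gained 10.5% of the 3228 at 15 µM. For H3K4me1 the FOXA counts were also 0 lost and 0 gained, against 8.92% and 10.9%. A gene called in both lists of a mark cannot be lost or gained, so these counts follow from the end calls. With 3 genes they are a description.

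Which end carried the mark differed among the 3 genes. FOXA1 is transcribed from its upper coordinate, 37595249, and at 0 µM no H3K27ac summit lay within 1 kb of that start, the nearest being 1403 bp away with a score of 7.45. Its end call came from the transcript's other end, where a summit 445 bp beyond it scored 41.7, a score reached by 3.66% of the list. At 15 µM the summit beyond that other end lay 304 bp away with a score of 18.7, and a further one, scoring 11.6, lay 577 bp before the start, inside TTC6 and 197 bp from that gene's own start. H3K4me1 summits stayed 1517 bp from the FOXA1 start at 0 µM and 2030 bp at 15 µM. The H3K27ac call at FOXA1 therefore describes its far end at 0 µM and both ends at 15 µM, and the H3K4me1 call describes the far end in both lists.

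FOXA3, transcribed from its lower coordinate, had H3K27ac at both ends in both lists. At 0 µM its summits lay 81 bp before the start, inside the sequence printed above, and 87 bp inside the other end, with scores of 7.56 and 63.8. At 15 µM they lay 299 bp after the start and 194 bp inside the other end, with scores of 9.62 and 17.0. An H3K27ac summit within 1 kb of both ends was found at 1.83% of genes at 0 µM and 1.06% at 15 µM. These shares include long genes, whose ends are far apart. For H3K4me1 the FOXA3 end that was called differed between the lists. At 0 µM the nearest summit lay 452 bp from the other end and 1540 bp from the start. At 15 µM it lay 426 bp from the start and 2325 bp from the other end, so neither end was called in both lists. FOXA2 had H3K27ac at both ends at 0 µM, 5 bp from the lower and 150 bp from the upper, with scores of 16.8 and 20.3. At 15 µM only its lower end had one, 684 bp away with a score of 17.6, and the nearest to the upper end lay 1399 bp from it. H3K4me1 lay within 1 kb of both FOXA2 ends at both doses, and inside the gene it had 0 summits in either list.

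The counts around the genes come next. Within 50 kb, FOXA1 had 12 summits of H3K27ac in each dose's list. FOXA2 had 13 and 18, and FOXA3 had 15 and 14. The median protein-coding gene had 2 and 1. Counts as high as that of FOXA1 were reached by 6.58% of genes at 0 µM and 4.63% at 15 µM, as high as that of FOXA2 by 5.41% and 1.90%, and as high as that of FOXA3 by 3.78% and 3.45%. The 90th percentile over all genes was 9 summits at 0 µM and 7 at 15 µM, and all 3 FOXA genes lay above it in both lists.

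**Figure D1:**
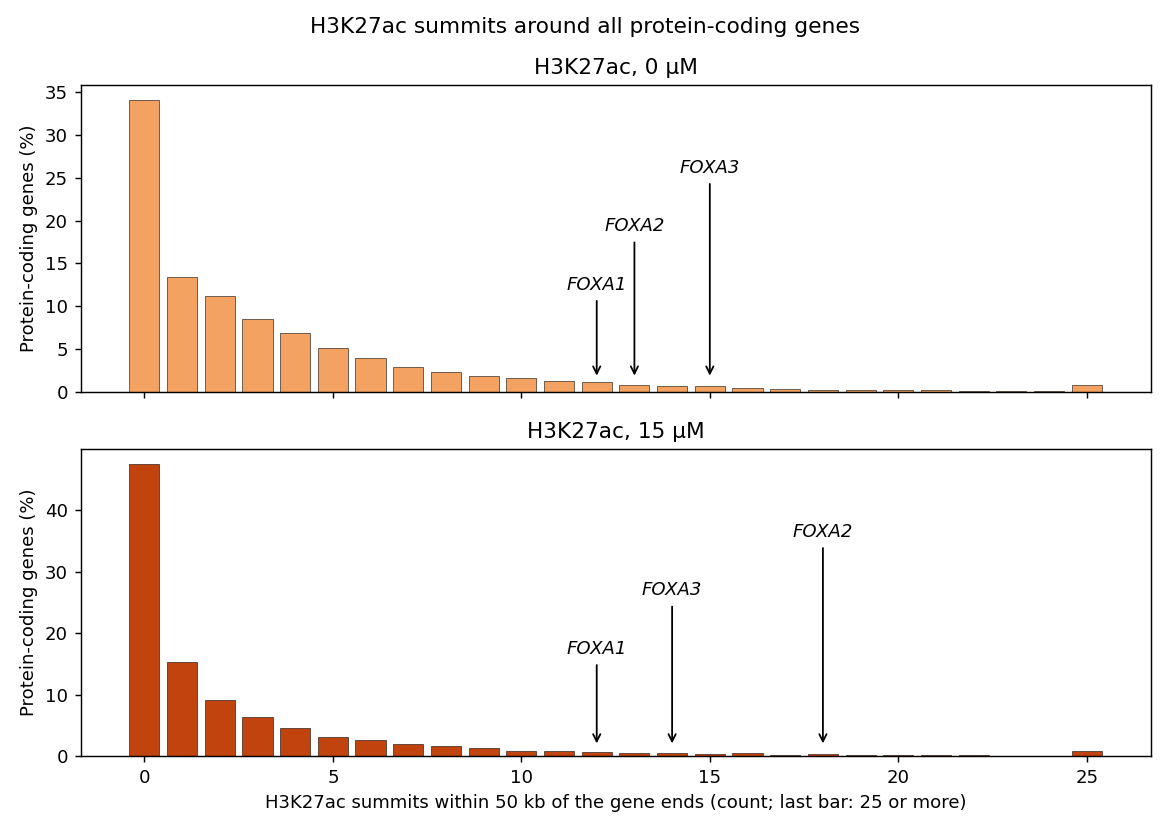
Percent of protein-coding genes (vertical) by their number of H3K27ac summits within 50 kb of the gene ends (horizontal), at 0 µM (top) and 15 µM (bottom), with arrows at the FOXA genes. At 0 µM 34.1% of genes had no summit and at 15 µM 47.6%, whereas the FOXA genes lay between 12 and 18.

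Within 100 kb FOXA2 had the most in both lists. The H3K27ac counts were 25 at 0 µM and 27 at 15 µM for FOXA2, FOXA1 had 16 and 14, and FOXA3 had 17 and 15. Counts as high as that of FOXA2 were reached by 2.02% and 1.32% of genes. Of H3K4me1, FOXA1 had the most, with 38 and 47 within 50 kb and 75 and 78 within 100 kb, FOXA2 had 31 and 30, then 58 and 57, and FOXA3 had 25 and 25, then 45 and 49. The medians over all genes were 20 and 21 within 50 kb, and 39.6% of genes reached the FOXA3 count at 0 µM, so this gene was close to the middle for H3K4me1. With no replicates, the order of neighbouring counts such as 12, 13 and 15 cannot be told from counting error.

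**Figure D2:**
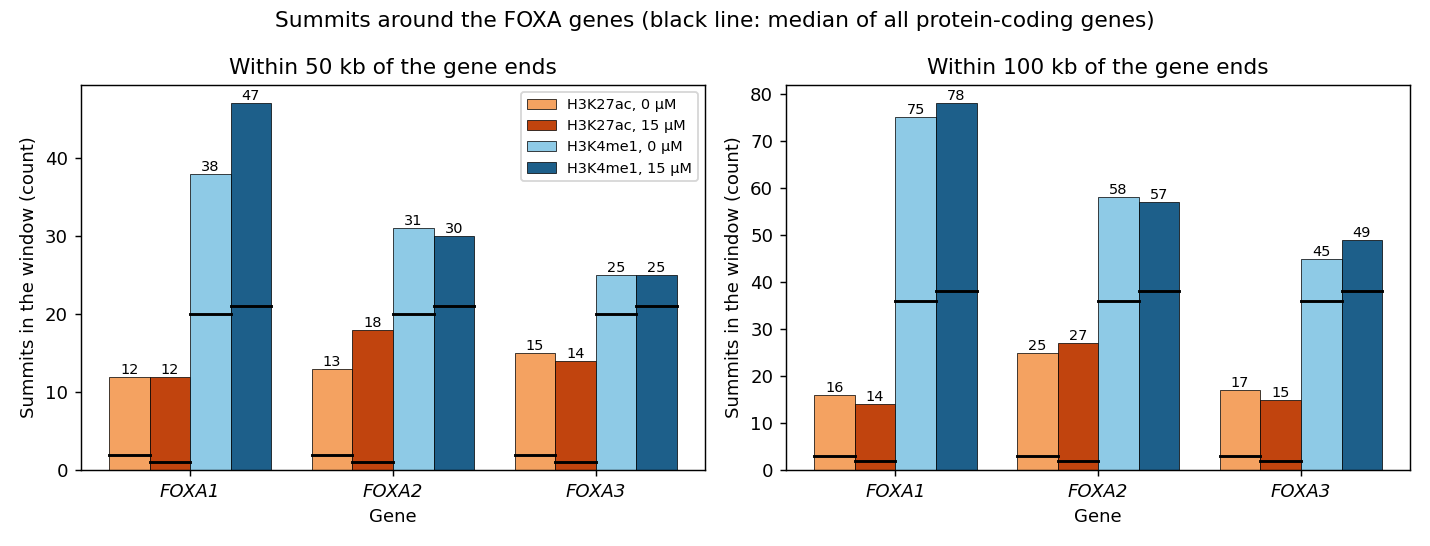
Number of summits (vertical) around each FOXA gene in the 4 lists (bars), within 50 kb (left) and 100 kb (right) of the gene ends, with a black line at the median of all protein-coding genes in that list. FOXA2 had the most H3K27ac summits within 100 kb, 25 and 27, and FOXA1 the most H3K4me1 summits, 75 and 78.

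To compare the doses, the share of window summits that lay in the 15 µM list was set beside the same share over the whole lists, which is 43.6% for H3K27ac because that list was shorter and 50.4% for H3K4me1. For H3K27ac within 50 kb the shares were 50% at FOXA1 (exact Clopper-Pearson 95% interval 29.1 to 70.9), 58.1% at FOXA2 (39.1 to 75.5) and 48.3% at FOXA3 (29.4 to 67.5). All 3 lay above 43.6%, and all 3 intervals included it. The intervals cover counting error only and treat neighbouring summits as independent. After scaling the 0 µM count by the ratio of list lengths, the 15 µM count was 1.79 times as high at FOXA2, 1.29 times at FOXA1 and 1.21 times at FOXA3. A ratio of at least 1.5 was found at 18.6% of the 3968 genes with 10 or more H3K27ac summits, and one of 1/1.5 or lower at 17.6%. FOXA2 alone of the 3 passed 1.5, and within 100 kb its ratio was 1.40. Among summits with a score of 10 or more, FOXA2 had 8 at 0 µM and 7 at 15 µM. The excess of its share over the whole lists went from 14.5 to 4.62 percentage points. At the other genes it rose, from 6.42 to 14.2 points at FOXA1 (7 and 9 summits) and from 4.7 to 15.1 at FOXA3 (9 and 12).

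H3K4me1 shares were 55.3% at FOXA1 (44.1 to 66.1), 49.2% at FOXA2 (36.1 to 62.3) and 50% at FOXA3 (35.5 to 64.5), with 50.4% inside each interval. No FOXA gene passed a ratio of 1.5 in either direction for this mark, against 8.2% of 17850 genes upward and 5.83% downward.

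**Figure D3:**
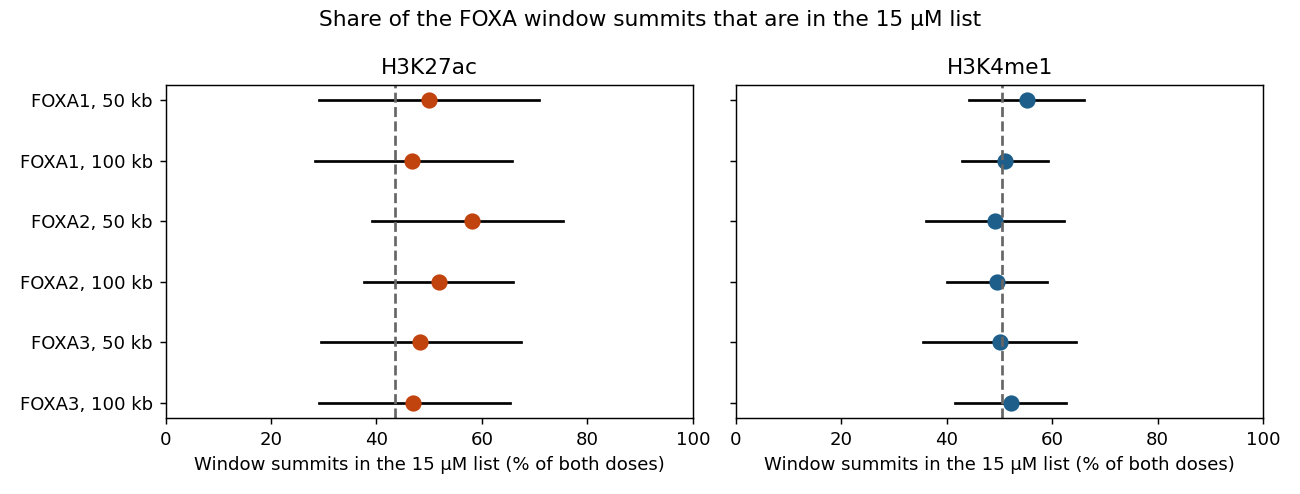
Percent of the window summits of both doses that lay in the 15 µM list (points) with exact 95% intervals (lines), for each FOXA gene and window, and the same percent over the whole lists (dashed). The FOXA2 point for H3K27ac within 50 kb, 58.1%, lies farthest from its dashed line at 43.6%, and each of the 12 intervals crosses its line.

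FOXA1 (chromosome 14, 37589552 to 37595249, hg38) lies between MIPOL1, whose nearer end is 37191 bp away, and TTC6, which starts 380 bp from the FOXA1 start on the opposite strand. In the H3K27ac list at 0 µM, 5 of the 12 summits within 50 kb lay within 5 kb of the gene. At 15 µM, 9 of 12 did. The highest score at 0 µM, 50.5, belonged to a distant summit at 37546673, inside MIPOL1 and 42.9 kb from FOXA1. The 15 µM list had a summit 94 bp from it with a score of 19.2, and H3K4me1 lay there at both doses with scores of 17.1 and 21.6. At 15 µM the highest score near FOXA1, 29.1, lay inside the gene, 1122 bp after its start.

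Between the MIPOL1 site and the gene, the 15 µM H3K27ac list was empty over 40 kb, where the 0 µM list had 3 summits with scores of 9.62, 8.55 and 10.9, none above that list's median of 10.9. Within 50 kb, 5 of the 12 summits at 0 µM had a 15 µM summit within 500 bp, and 10 had an H3K4me1 summit within 1 kb. At 15 µM, 5 of 12 were shared and 7 had H3K4me1. A site was counted as found in all 4 lists if a 0 µM H3K27ac summit had a 15 µM one within 500 bp. It also needed an H3K4me1 summit of each dose within 1 kb. Such sites within 100 kb were that in MIPOL1, a more distant one in MIPOL1 at 37493979, and the pair at the FOXA1 transcript end, at 37589107 and 37590372. Assigning each summit to the nearest protein-coding gene left FOXA1 with 4 H3K27ac summits without choline and 8 with it, since those above the gene fall to TTC6 and the distant ones to MIPOL1.

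FOXA2 (chromosome 20, 22580998 to 22585490) had no other protein-coding gene within 100 kb, and 5 long noncoding RNA genes. Its H3K27ac was one-sided. Within 100 kb at 0 µM, 20 summits lay below the gene, 3 inside it and 2 above it, and at 15 µM 24 lay below, 3 inside and 0 above. H3K4me1 lay on both sides, with 35 below and 23 above at 0 µM, and 36 and 21 at 15 µM. LINC00261, a noncoding RNA gene that begins 2356 bp below FOXA2, contained 6 H3K27ac summits without choline and 9 with it. LNCNEF, 2032 bp above FOXA2, held 0 in both lists and 5 H3K4me1 summits in each.

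The highest-scoring H3K27ac summit of all 3 FOXA windows lay 68.7 kb below FOXA2, at 22512310 inside LOC105372564. Its score of 130 at 0 µM ranked 18th in the list of 37946. At 15 µM a summit 113 bp away scored 26, a score reached by 5.05% of that list. A second site, 56.9 kb below FOXA2, lay at 22524050 at 0 µM and at 22524076 at 15 µM, 140 and 114 bp inside the start of LOC105372564, downstream of the sequence printed above. It scored 51.4 at 0 µM and 41.5 at 15 µM, the latter being the highest FOXA2 score in that list. With H3K4me1 scores of 13.9 and 28.3 it was the only site within 100 kb of FOXA2 found in all 4 lists by the distances given for FOXA1. The 0 µM summits at 22564196, in LINC00261, and 22581003, at the lower end of FOXA2, missed these distances. Their nearest 15 µM H3K27ac summits lay 518 and 689 bp away. Both sites at LOC105372564 lie outside the 50 kb window, so that the 50 kb counts above leave them out.

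Closer to FOXA2, most H3K27ac summits formed 1 run, in which each lay within 5 kb of the next. At 0 µM it had 11 summits over 22.6 kb, and 0.948% of the runs in that list had as many. At 15 µM it had 16 over 25.3 kb, reached by 0.421% of runs. It began 16802 bp below FOXA2 at 0 µM, within LINC00261, and 22180 bp below it at 15 µM, beyond the far end of LINC00261. It ended 1271 bp above FOXA2 at 0 µM and inside the gene at 15 µM. High H3K4me1 scores stood within LINC00261 too. One summit 16.5 kb below FOXA2 scored 38.0 at 0 µM, and one 8.26 kb below it scored 34.8, scores reached by 0.0495% and 0.0842% of the list. At 15 µM their partners, 189 and 78 bp away, scored 41.1 and 37.2.

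FOXA3 (chromosome 19, 45864326 to 45873797) lies in a gene-dense region, with 5 protein-coding neighbours within 50 kb and 10 within 100 kb. Its H3K27ac was compact. A run of 14 summits covered 23.8 kb at 0 µM, from 1487 bp before the FOXA3 start to just past IRF2BP1, which encodes a corepressor. At 15 µM a run of 14 covered 22.0 kb. Runs with as many summits made up 0.398% and 0.665% of each list. On the other side, over RSPH6A and most or all of SYMPK, a scaffold of mRNA end processing, no H3K27ac summit was listed for 92.9 kb at 0 µM and 95.6 kb at 15 µM. The 0 µM list had 2 summits within 50 kb below the gene, at 1487 and 81 bp, and the 15 µM list had 0.

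The body of FOXA3 carried 7 H3K27ac summits in the 0 µM list and 6 in the other, and 6 and 8 lay above it. At 0 µM the highest score, 63.8, was that of the summit at the transcript's end. At 15 µM it was 36.9, at 45878802, which is 5005 bp above the gene. The 0 µM list had a summit 63 bp from that position with a score of 5.76, a score reached by 96.7% of that list. H3K4me1 had its highest FOXA3 score beside it in both lists, 34.3 at 0 µM and 32.4 at 15 µM. This site and 4 inside FOXA3 were the ones present in all 4 lists by the same distances. Of the 5 protein-coding neighbours within 50 kb, IRF2BP1 had an H3K27ac summit within 1 kb of an end at both doses. SYMPK and MYPOP had one at 0 µM only. By nearest protein-coding gene, 9 of the 15 summits at 0 µM and 9 of the 14 at 15 µM fell to FOXA3, the rest lying nearer to SYMPK, IRF2BP1 or MYPOP.

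**Figure D4:**
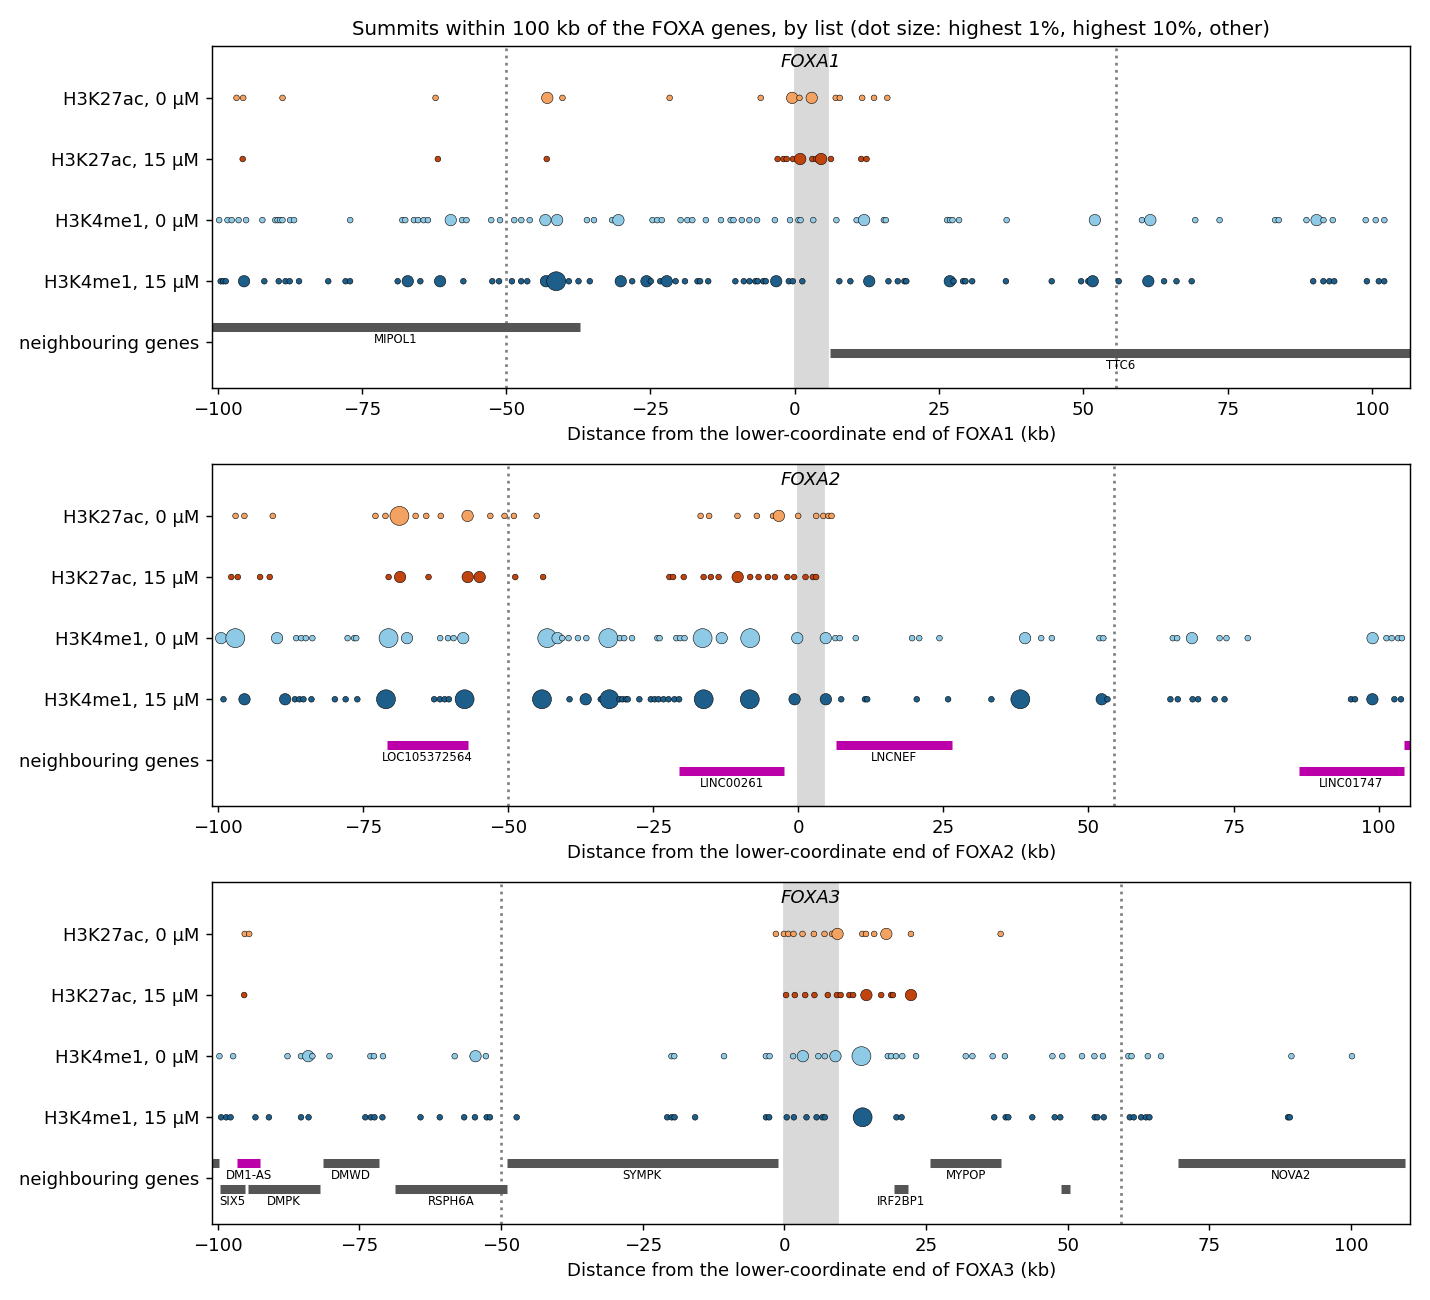
Summits of the 4 lists (dots, by row) within 100 kb of FOXA1, FOXA2 and FOXA3, by distance in kb from the lower-coordinate end of each gene (grey band), with neighbouring protein-coding (dark) and noncoding RNA genes (magenta), and dotted lines at 50 kb. Large dots have scores in the highest 1% of their list and medium ones in the highest 10%. H3K27ac lies below FOXA2 and within FOXA2, with 2 summits at 0 µM and 0 at 15 µM above it, and FOXA3 has an empty stretch of 92.9 kb at 0 µM and 95.6 kb at 15 µM on the SYMPK side.

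Over the 3 windows of 50 kb together, 19 of 40 H3K27ac summits at 0 µM (47.5%, 31.5 to 63.9) had a 15 µM summit within 500 bp, against 38.7% over the whole list. At 15 µM, 18 of 44 (40.9%, 26.3 to 56.8) had a 0 µM summit, against 50.7%. For H3K4me1 the shares were 60.6% (50 to 70.6) and 57.8% (47.7 to 67.6), against 44.5% and 43.5%. An H3K4me1 summit lay within 1 kb of 67.5% of the FOXA H3K27ac summits at 0 µM (50.9 to 81.4) and of 50% at 15 µM (34.6 to 65.4), beside 65.2% and 58.5% of the whole lists. By gene, the counts at 0 µM were 10 of 12 at FOXA1, 12 of 15 at FOXA3 and 5 of 13 at FOXA2, and at 15 µM 7 of 12, 8 of 14 and 7 of 18. FOXA2 had the lowest share in both lists, and the difference between genes was not tested.

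The genes most like each FOXA gene were those at the smallest Euclidean distance in log2(count + 1) over 8 values, the 50 and 100 kb counts of the 4 lists. They were MISP, BORCS7 and CMPK1 for FOXA1 (distances 0.35, 0.36 and 0.43), CCDC200, ESYT1 and TMEM106A for FOXA2 (0.39, 0.43 and 0.44), and GNPAT, S100P and KLHL33 for FOXA3 (0.35, 0.40 and 0.41). The FOXA genes lay at 1.52 between FOXA1 and FOXA2, 1.49 between FOXA1 and FOXA3 and 1.19 between FOXA2 and FOXA3. Genes picked as the closest lie nearer than a pair named beforehand almost by construction. The median distance of all genes was 5.67 from FOXA1, 6.42 from FOXA2 and 5.66 from FOXA3.

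Liver factors that act with FOXA were counted in the same way. Of 19, 14 had an H3K27ac gene end at 0 µM, 12 at 15 µM and 11 at both, and 2 were lost, those of HNF4G, a relative of HNF4A, and of TBX3, a T-box repressor of the liver bud. Over all genes, 28.3% had such an end at 0 µM, 16.2% at 15 µM and 13.5% at both. Of the genes with an end at 0 µM, 14.3% of the liver factors and 43.9% of all genes lost it. The median 50 kb count of the liver factors was 16 at 0 µM and 10 at 15 µM. It was 13 and 14 for the FOXA genes and 2 and 1 for all genes. PROX1, a homeobox factor of hepatoblasts, and NR1H4, the bile acid receptor, had the highest counts summed over both doses, with 30 and 39 for PROX1 and 26 and 39 for NR1H4. Scaled for list length, 11 of the 19 had more H3K27ac summits at 15 µM and 8 fewer. Over all 19974 genes, 4989 had more, 8623 fewer and 6362 none in either list. Most of these genes had far fewer summits than the liver factors, so the 2 splits are not like for like. Among the 3968 genes with 10 or more, 18.6% had a ratio of at least 1.5 and 17.6% one of 1/1.5 or lower. For H3K4me1, 6 of the 19 had more and 13 fewer, against 9790 and 10001 of all genes.

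Of 15 liver genes with FOXA-bound promoters or enhancers in textbook accounts, 9 had an H3K27ac gene end at both doses and 0 were lost. An end at both doses was found at 13.5% of all genes, and 43.9% of those with one at 0 µM lost it. These 9 were the only genes of the 15 with an end at 0 µM. The 0 lost therefore follows from their calls at both doses. The median H3K27ac count of the 15 genes was 13 at 0 µM and 12 at 15 µM. After scaling, 9 had more and 3 fewer at 15 µM. The same 4989 and 8623 of all genes are not like for like here either, as most had far fewer summits. The 3 other liver genes, G6PC1, IGFBP1 and PCK1, had 0 H3K27ac summits in both lists. Their H3K4me1 counts were 27 and 27, 18 and 12, and 3 and 7. The H3K4me1 split of these 15 genes ran the other way, with 3 more and 12 fewer, against 9790 and 10001 of all genes. ALB, which encodes serum albumin, had 24 and 44 H3K27ac summits. The neighbouring AFP, its fetal counterpart, had 18 and 42, in a window that overlaps that of ALB. For H3K4me1 the counts were 37 and 20 at ALB and 41 and 23 at AFP.

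The other forkhead genes mostly had fewer summits than the FOXA genes. The list held 49 genes whose symbol fits the family's form, among them FOXL2NB, a neighbour of FOXL2 and not a forkhead gene. Without choline, 11 of the 49 carried an H3K27ac gene end (22.4%, against 28.3% of all genes). With choline 3 did, against 16.2% of all genes. Of the 11 ends, 4 were lost (36.4%, against 43.9% over all genes), those of FOXQ1, FOXJ3, FOXM1 and FOXD2. The share lost was therefore not above that of all genes. FOXM1, a cell cycle activator, had 5 summits at 0 µM and 0 at 15 µM. The family's median count was 1 at 0 µM and 0 at 15 µM, and 23 of the 49 had none at either dose. FOXP1 and FOXP2, long genes with correspondingly long windows, had the most, with 64 and 47 at FOXP1 and 27 and 28 at FOXP2. The FOXD4L genes are near-identical copies, at which summit positions are uncertain.

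**Figure D5:**
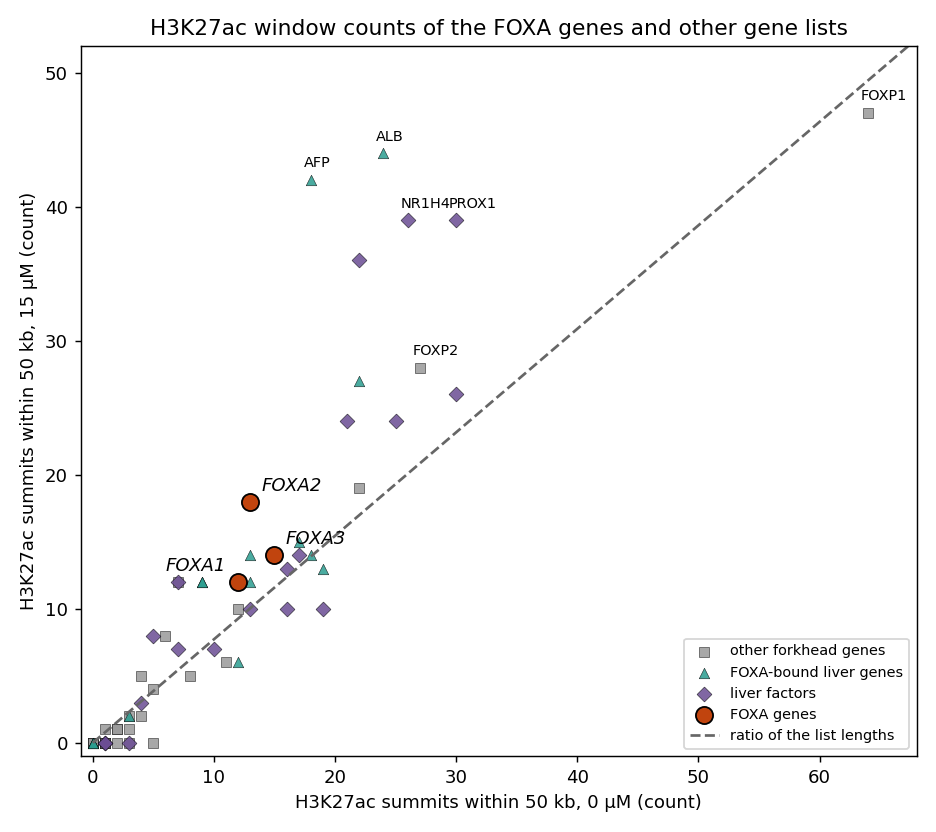
H3K27ac summits within 50 kb of each gene at 0 µM (horizontal) and 15 µM (vertical), for the FOXA genes (circles), liver factors (diamonds), FOXA-bound liver genes (triangles) and other forkhead genes (squares). The dashed line has the ratio of the list lengths, and the 3 FOXA genes, at 12 and 12, 13 and 18, and 15 and 14, lie above it.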

How the data were processed

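The authors deposited 1 list of summits per ChIP-seq library, in the layout of MACS2 summit files, and its last column fits a −log10 p-value (or q-value). Which of these it is, and how calls were made, is not given in the sources used here. Tools named in the submitters' processing notes are MACS2, Bowtie, deepTools and Picard, each without a version, and the build is hg38. Only chromosomes 1 to 22 and X were used, which left out 27 to 429 summits per list, and positions are 1-based. Gene positions came from RefSeq (GRCh38.p14), and transcript starts from its promoter table, which held FOXA1 and FOXA3.

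Summits were counted within 50 and 100 kb of either gene end, and an end was called at a distance of 1 kb or less. Shares have exact Clopper-Pearson 95% intervals. No p-value was computed, since each group had 1 library. Python 3.11.15, numpy 2.4.6, pandas 2.3.3 and scipy 1.17.1 were used. The counting was checked on the H3K27ac list without choline, against a direct count and after summits near some gene ends were removed. The members, gene lists and alternatives were chosen with earlier results of these data known, and the runs, the summit-free stretches and the motifs were added after the data were seen. Named genes are the FOXA genes, neighbours within 50 kb that a summit lies nearer to or that have an H3K27ac end, the 3 most similar genes outside 200 kb, and from each list those with a lost or gained end and the 2 with the highest counts. LOC105372564, the 3 textbook targets without H3K27ac summits and the markers named with an end were chosen after their values were seen.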

Additional observations from a re-analysis of the deposited data

How the results depend on the processing

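Over 7 alternatives for each gene and mark (windows of 20, 100 and 250 kb, lists of equal length, stricter scores, summits within 1 kb joined, nearest gene only), each share's difference from the whole-list share stayed within the counting interval of its 50 kb value. The side of the whole-list share changed for FOXA1 H3K27ac with joined summits (-0.877 points), and for FOXA3 H3K4me1 it changed or came to 0 in 4 of the 7, while the other 4 kept their side in 7 of 7. The 7 alternatives are not independent, as the windows are nested. At FOXA2 the nearest-gene rule left the counts unchanged, and lists of equal length changed no H3K4me1 count. All 3 FOXA genes had an end call at 2 and 5 kb in all 4 lists. At 500 bp, 2 of 3 had one in H3K27ac at 15 µM and in H3K4me1 at 0 µM. No FOXA gene lost or gained its end call when absence was required within 10 kb. That stricter rule could only lower the counts, which were already 0. Shares at the other dose depended on the matching distance. At 200 bp they were 27.5% and 25% for H3K27ac at 0 and 15 µM and 30.9% and 27.5% for H3K4me1, and at 2000 bp 82.5%, 88.6%, 89.4% and 88.2%. H3K27ac summits with H3K4me1 at 0 µM made up 42.5% within 500 bp and 87.5% within 2 kb, and at 15 µM 72.7% within 2 kb. A wider distance can only add matches. The shares over the whole lists were not computed at these other distances, so these values cannot be read against all summits. No paired analysis was possible because each group held 1 library. Read depth, which limits how many summits a caller lists, is unknown.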

Other observations

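In the wider windows of 250 kb, H3K27ac summits at FOXA1 numbered 34 without choline and 29 with it, FOXA2 had 42 and 38, and FOXA3 had 24 and 19. H3K4me1 counts were 152 and 168 at FOXA1, 136 and 122 at FOXA2, and 102 and 104 at FOXA3. Of the 0 µM H3K27ac summits within 100 kb, 7 at FOXA1, 10 at FOXA2 and 9 at FOXA3 had a 15 µM summit within 500 bp, at a median distance of 132, 264.5 and 107 bp. At FOXA3, 1 summit of the 15 µM list was the nearest to 2 of them, so that 8 summits were shared from that side.

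The longest stretch without an H3K4me1 summit within 100 kb of FOXA3 also lay on its SYMPK side, 32.7 kb at 0 µM and 26.6 kb at 15 µM, inside the longer stretch without H3K27ac. At FOXA2 the longest stretch without H3K27ac between 2 summits, 28.2 kb at 0 µM and 21.8 kb at 15 µM, separated the run over LINC00261 from the sites at LOC105372564. H3K4me1 summits lay in it at both doses, among them one at 22548294 at 0 µM.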
